A study of Homo sapiens with 26 samples.

Results

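The genes described here are 10 human heat shock protein genes known as targets of the transcription factor HSF1: DNAJB1, DNAJA4, HSPA1A, HSPA1B, HSPH1, HSPA8, HSP90AA1, HSPB1, BAG3 and HSPE1. They were selected by symbol, with results of these same libraries already known, so the labeled and control values below are a description and were not used as a test of the group. Of the 10, 8 had a row among the 25745 genes of the deposited table, and all 8 were among the 22284 genes tested. HSPA1A and HSPA1B had no row and were not analysed here. HSPE1 is grouped with cytosolic proteins by the selection, but its product, HSP10, is known as the lid of the chaperonin in the mitochondrial matrix.

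The libraries came from HEK293T, a widely used line of human embryonic kidney origin in which the SV40 large T antigen is expressed, with 4 APEX2 fusion constructs, each stably expressed in its own cells. APEX2 is an engineered peroxidase that turns biotin-phenol into short-lived radicals which tag nearby molecules. Biotinylated RNA was then collected on streptavidin beads and sequenced. The design text places the Lyn11 and Lck fusions inside the plasma membrane and the CD28 and PDGFR fusions outside it. Every group was made from cells that stably carry an APEX2 fusion, and the labels list the same 30 min of biotin-phenol and the same 1 min of hydrogen peroxide at 1 mM for labeled and control samples alike. The sources used here do not say which step the unlabeled controls lacked. Lyn11 had 4 labeled and 4 control libraries, and Lck, CD28 and PDGFR had 3 and 3 each. Whether the stable cells of a construct were a clone or a pool is not stated there, so constructs cannot be told apart from the cells that carry them. The libraries hold bulk RNA, in which fewer cells with an RNA and less of it per cell cannot be told apart.

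HSF1 is held inactive in unstressed cells and, when unfolded proteins accumulate, binds heat shock elements, which are arrays of the letters GAA and TTC in alternating orientation. Its targets form a folding circuit in the cytosol. HSP40 proteins such as DNAJB1 and DNAJA4 deliver clients to HSP70 proteins and stimulate their ATPase, HSP110 proteins such as HSPH1 and BAG proteins such as BAG3 exchange the nucleotide, HSP90AA1 takes over late folding steps, and the small protein HSPB1 holds unfolded clients. HSPA8 is the constitutive member of the HSP70 family, while HSPA1A and HSPA1B are the strongly inducible ones.

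The promoter sequences are shown because the group is defined by HSF1. The HSP40 genes DNAJB1 and DNAJA4 hold the same pair of motif cores near a start site, a pair looked at with results of these data known. The core GAAGGTTC is also in the promoters of HSPA8, HSP90AA1 and HSPB1. Whether motifs go with labeled minus control differences was not tested. The sequences are from RefSeq on GRCh38.p14, written 5′ to 3′ on the gene's strand, and capitals mark matches to GAANNTTC or TTCNNGAA. The HSPA8 and HSP90AA1 stretches lie in annotated exons and are shown only around the match.
DNAJB1 (chr19:14518421-14518497, minus strand): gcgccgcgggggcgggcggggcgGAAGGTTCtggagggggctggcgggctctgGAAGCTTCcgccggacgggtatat
DNAJA4 (chr15:78264462-78264543, plus strand): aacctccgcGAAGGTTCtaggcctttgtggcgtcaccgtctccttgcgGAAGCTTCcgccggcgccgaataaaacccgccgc
HSPA8 (chr11:123062172-123062199, minus strand): cgggccccTTCTGGAAGGTTCtaagata
HSP90AA1 (chr14:102087113-102087140, minus strand): gagggttcTTCCGGAAGGTTCgggaggc

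In DNAJB1 the cores GAAGGTTC and GAAGCTTC began 77 and 47 bases before the start site at 14518397. In DNAJA4 the same cores began 91 and 52 bases before the start site at 78264562. HSPA8 and HSP90AA1 each held a triple array, TTCTGGAAGGTTC at 55 bases and TTCCGGAAGGTTC at 88 bases. The pair GAANNTTC, which reads the same on both strands, was present in the 250 bases before a start site of 7 of the 10 genes, namely DNAJB1, DNAJA4, HSPA1A, HSPA1B, HSPA8, HSP90AA1 and HSPB1. Among all 27305 genes with a RefSeq promoter, 7.05% held it. The pair TTCNNGAA was in 2 of the 10 genes, HSPA8 and HSP90AA1, against 8.12% of all genes. The triple, GAANNTTCNNGAA or its reverse TTCNNGAANNTTC, overlaps both pairs and was in the same 2 genes, against 0.557% of all genes. HSPH1, BAG3 and HSPE1 held none of these letters in that window, which says nothing of HSF1 elsewhere. These matches describe the sequence, and binding was not measured.

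The deposited value is log2 FPKM, which counts fragments relative to exon length and to sequencing depth, so levels of different genes can be compared per length. Reads recovered from these values totalled 19.99 to 35.57 M per library inside (14 libraries) and 11.6 to 16.62 M outside (12 libraries). Depth and side therefore cannot be told apart. Replicate 2 of CD28 labeled and replicate 2 of the PDGFR controls were the farthest from their group means, with 1.13 and 1.19 log2 units of root mean square deviation against 0.29 to 0.37 in the Lck libraries, 0.61 to 0.85 in the other CD28 libraries and 0.77 to 0.92 in the other PDGFR libraries. These 2 libraries are said below to stand apart. The HEK293T markers VIM, KRT8, KRT18, NEFM, PAX2 and XRCC5 had at least 84 reads in every library, and LHX1 had no row. Among markers of blood, fibroblasts and hepatocytes, PTPRC, HBB, COL1A2, DCN, ALB and APOA1 had no row, CD3E and LUM had at most 40 and 58 reads, and COL1A1 had 564 to 2367 reads.

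HSP90AA1 and HSPA8 were by far the most abundant members. HSP90AA1 averaged 7.78 log2 FPKM over the 26 libraries, above 99.7% of all genes, and HSPA8 averaged 7.48, above 99.6%. HSP90AA1 was the higher in 22 of 26 libraries, but their mean difference of 0.29 was close to its SD of 0.27 between libraries. DNAJB1 followed at 4.70, which was 2.78 ± 0.30 (SD, n = 26) below HSPA8. HSPH1 at 3.95, HSPE1 at 3.70, HSPB1 at 3.64 and BAG3 at 3.60 formed a middle tier. The neighbours HSPH1 and HSPE1 differed by 0.25 with an SD of 0.35, HSPE1 and HSPB1 by 0.06 with an SD of 0.78, and HSPB1 and BAG3 by 0.03 with an SD of 0.48, so their order did not stand beyond the spread. DNAJA4 was far lower, at a mean of -0.71, above only 16.8% of all genes and 4.31 ± 0.73 (SD, n = 26) below BAG3.

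Recovered reads set the counting error of each gene. HSP90AA1 had 11741 to 38057 reads per library, HSPA8 7740 to 43926, HSPH1 1404 to 4900, DNAJB1 1031 to 4224, BAG3 432 to 1235, HSPE1 289 to 1011 and HSPB1 105 to 1415. DNAJA4 had only 15 to 178. Its lowest library, with 15 reads, has an exact 95% Poisson interval of 8.4 to 24.7 reads, which covers counting error only. The mean SD within groups was smallest for BAG3, at 0.12 log2 units, and largest for HSPB1, at 0.37, and HSPE1, at 0.36.

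**Figure D1:**
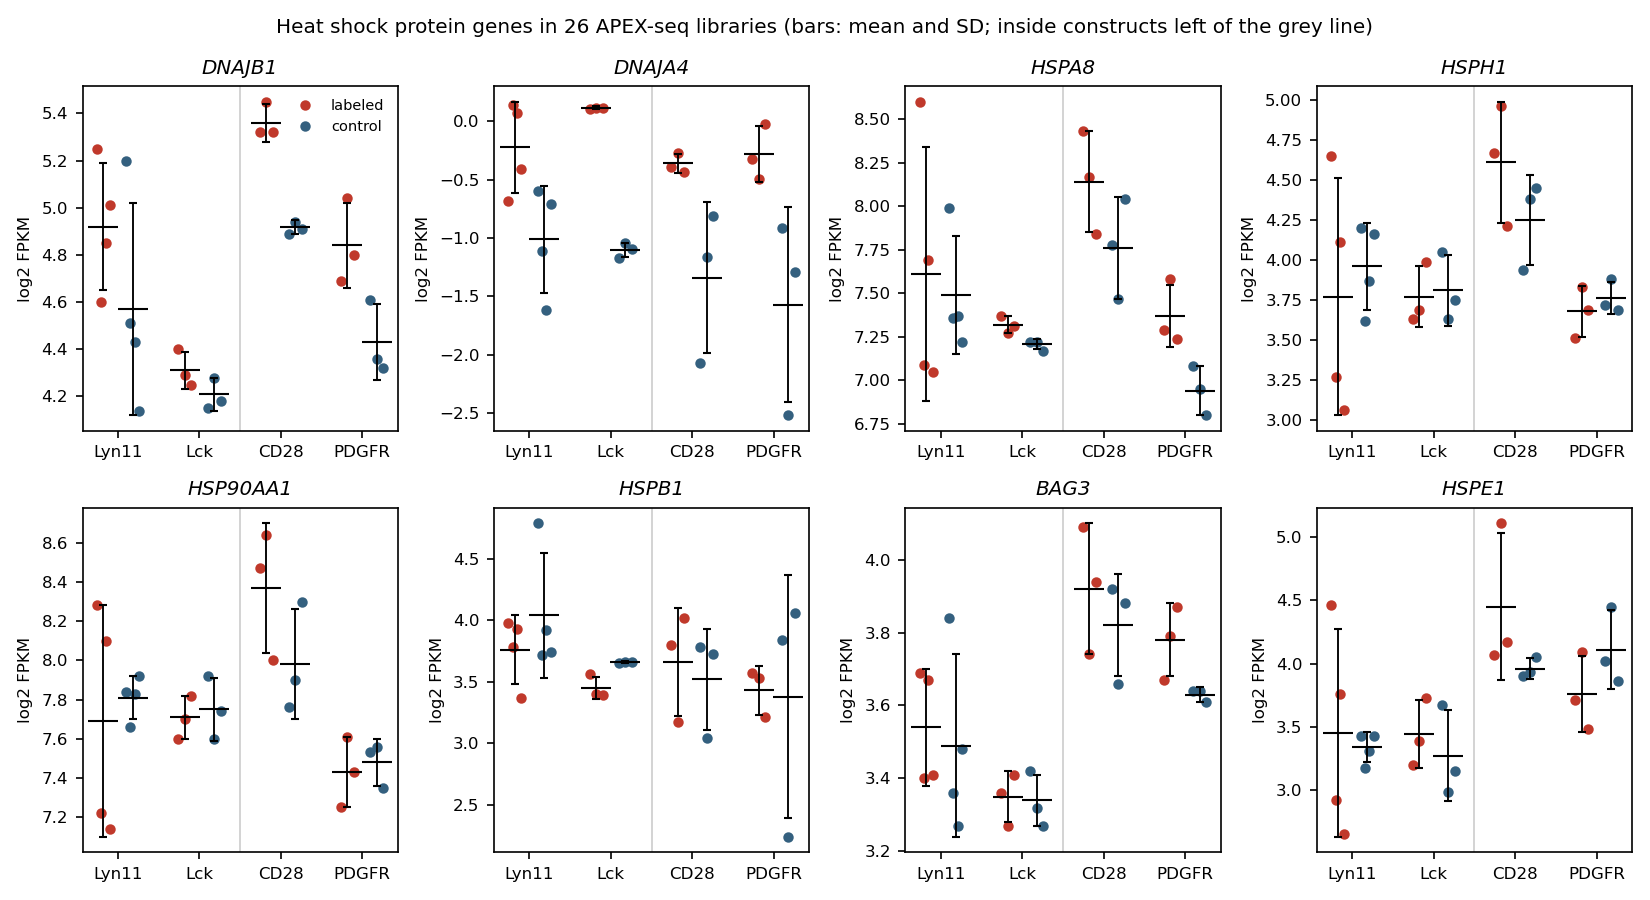
Deposited log2 FPKM (y axis, a separate scale for each gene) of the 8 measured members in each labeled (red) and control (blue) library by construct, with the group mean and SD. DNAJA4 labeled libraries sit above the controls without overlap in Lck, CD28 and PDGFR, as for 12.9%, 7.44% and 7.53% of all genes. The highest group mean is in CD28 labeled for 6 of the 8 genes, as for 18.4% of all genes.

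The HSP40 gene DNAJA4 (ENSG00000140403.12, chr15:78264086-78282196, plus strand) had the largest labeled minus control difference of the group. Its Lyn11 values were -0.68, 0.14, 0.07 and -0.41 log2 FPKM when labeled and -0.60, -1.11, -1.62 and -0.71 in the controls. In Lck they were 0.11, 0.12 and 0.12 against -1.17, -1.04 and -1.09. The groups overlapped in Lyn11 only through labeled replicate 1 and control replicate 1, and in Lck the 3 labeled libraries were nearly identical and stood more than a log2 unit above the controls. CD28 gave -0.39, -0.27 and -0.43 against -2.07, -1.16 and -0.81. PDGFR gave -0.32, -0.49 and -0.02 against -0.91, -2.52 and -1.29. In both outside constructs every labeled library was above every control. All labeled libraries were above all controls for 3.4% of all genes in Lyn11, 12.9% in Lck, 7.44% in CD28 and 7.53% in PDGFR.

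The log2 differences of DNAJA4 were 0.79 ± 0.36 in Lyn11, 1.22 ± 0.41 in Lck, 0.98 ± 0.41 in CD28 and 1.30 ± 0.41 in PDGFR, where errors are standard errors of the fit. Their average was 1.07 ± 0.20, a 2.1-fold higher level. Without PDGFR control replicate 2, which had 15 DNAJA4 reads, the PDGFR difference was 0.82, and without CD28 control replicate 1, which had 21, the CD28 difference was 0.62. Without both libraries that stood apart, the average was 0.94 ± 0.18. DNAJA4 passed the filter on low values, more than 0 log2 units in 3 or more libraries, through 5 labeled libraries and 0 controls, so a difference was built into its being tested. With no filter its average difference was also 1.07. The filter could not change this value, which comes from the gene's own libraries alone, so it says nothing of that selection.

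WDR61, on the opposite strand, shares no exon bases with DNAJA4 and had an average difference of 0.08 ± 0.08. The unmeasured antisense and intronic transcripts AC090607.3 and AC090607.4 share 1.08% and 5.60% of the exon bases of DNAJA4. The sources used here do not give the strandedness of the libraries, so reads from such overlaps cannot be told apart.

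DNAJB1 (ENSG00000132002.7, chr19:14514770-14529770, minus strand), the major stress-inducible HSP40 of the cytosol, had the second largest difference. Its log2 FPKM in Lyn11 was 5.25, 4.60, 4.85 and 5.01 when labeled and 5.20, 4.51, 4.43 and 4.14 in the controls, where control replicate 1 stood with the labeled libraries. Lck gave 4.40, 4.29 and 4.25 against 4.15, 4.28 and 4.18, 2 groups that overlapped. CD28 gave 5.32, 5.45 and 5.32 against 4.89, 4.94 and 4.91, and PDGFR gave 4.69, 5.04 and 4.80 against 4.61, 4.36 and 4.32. The outside groups did not overlap, with labeled higher, as for 7.44% of all genes in CD28 and 7.53% in PDGFR. The CD28 labeled libraries held the 3 highest DNAJB1 values of the series.

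The DNAJB1 differences were 0.35 ± 0.16 in Lyn11, 0.10 ± 0.19 in Lck, 0.45 ± 0.19 in CD28 and 0.41 ± 0.19 in PDGFR. The average was 0.33 ± 0.09, a 1.26-fold higher level. Without Lyn11 control replicate 1 the Lyn11 difference was 0.56, and without Lyn11 control replicate 4 it was 0.21. TECR, on the opposite strand, shares 5.75% of the exon bases of DNAJB1 and had an average difference of 0.13 ± 0.10.

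Among the members of the HSP70 machinery, HSPA8 (ENSG00000109971.13, chr11:123057489-123063230, minus strand) had positive differences in all 4 constructs. In PDGFR the labeled libraries had 7.29, 7.58 and 7.24 log2 FPKM against 7.08, 6.95 and 6.80 in the controls, and in Lck 7.37, 7.27 and 7.31 against 7.22, 7.22 and 7.17, with no overlap in either, as for 7.53% and 12.9% of all genes. CD28 gave 8.43, 8.17 and 7.84 against 7.78, 7.47 and 8.04, and here the groups overlapped. In Lyn11, labeled replicate 1 at 8.60 stood far above labeled replicates 2 to 4 at 7.09, 7.69 and 7.05, and the controls had 7.99, 7.36, 7.37 and 7.22. The differences were 0.12 ± 0.25 in Lyn11, 0.11 ± 0.28 in Lck, 0.38 ± 0.28 in CD28 and 0.43 ± 0.28 in PDGFR, with an average of 0.26 ± 0.14. Without Lyn11 labeled replicate 1 the Lyn11 difference was -0.21, so its sign rests on that library.

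HSPA8 contains the C/D box small nucleolar RNA genes SNORD14C, SNORD14D and SNORD14E, which lie on its own strand. Only SNORD14E had a row, with 1 to 58 reads per library and an average difference of 0.27 ± 0.36. The 6 measured HSPA8 pseudogenes together had 0.447% to 2.64% of the read number of HSPA8, and how reads that align to both were assigned was not tested.

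HSPH1 (ENSG00000120694.19, chr13:31134974-31162388, minus strand), the HSP110 nucleotide exchange factor, had differences of -0.19 ± 0.25 in Lyn11, -0.04 ± 0.29 in Lck, 0.36 ± 0.29 in CD28 and -0.09 ± 0.29 in PDGFR. HSP90AA1 (ENSG00000080824.18, chr14:102080738-102139699, minus strand), the inducible HSP90, had -0.13 ± 0.21, -0.04 ± 0.24, 0.39 ± 0.24 and -0.05 ± 0.24 in the same order. Both were near 0 on average, at 0.01 ± 0.14 and 0.04 ± 0.12. Both ran in step within Lyn11 labeled, where HSPH1 had 4.65, 3.27, 4.11 and 3.06 log2 FPKM and HSP90AA1 had 8.28, 7.22, 8.10 and 7.14. The SDs of these 4 replicates, 0.74 for HSPH1 and 0.59 for HSP90AA1, were larger than any of the differences. Without CD28 labeled replicate 2 the CD28 differences were 0.18 for HSPH1 and 0.25 for HSP90AA1. WDR20, on the opposite strand, shares 3.75% of the exon bases of HSP90AA1.

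The small heat shock protein gene HSPB1 (ENSG00000106211.8, chr7:76302544-76304295, plus strand) had negative differences inside, -0.28 ± 0.31 in Lyn11 and -0.21 ± 0.35 in Lck, and 0.14 ± 0.35 in CD28 and 0.06 ± 0.35 in PDGFR. The Lck libraries had 3.56, 3.40 and 3.39 log2 FPKM labeled against 3.65, 3.66 and 3.66 in the controls and did not overlap, and all labeled libraries were below all controls for 13.2% of all genes there. In Lyn11, CD28 and PDGFR a single library moved the value. Lyn11 control replicate 1 was at 4.79 against 3.72, 3.92 and 3.74 in replicates 2 to 4, and the Lyn11 difference without it was -0.03. PDGFR control replicate 2 was at 2.24, with 105 reads, against 3.84 and 4.06, and the PDGFR difference without it was -0.51. The CD28 difference was -0.10 without CD28 control replicate 2, at 3.04, and 0.39 without CD28 labeled replicate 2, at 3.17.

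BAG3 (ENSG00000151929.9, chr10:119651370-119677819, plus strand), which couples HSP70 to selective autophagy and small heat shock proteins, varied least. Its differences were 0.06 ± 0.11 in Lyn11, 0.01 ± 0.13 in Lck, 0.10 ± 0.13 in CD28 and 0.15 ± 0.13 in PDGFR. In PDGFR the labeled libraries, at 3.67, 3.79 and 3.87 log2 FPKM, were all above the controls at 3.64, 3.64 and 3.61. Such separation was found for 7.53% of all genes there.

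HSPE1 (ENSG00000115541.10, chr2:197499994-197503457, plus strand), the mitochondrial HSP10, was the member whose differences ranged most widely between constructs. CD28 gave 4.07, 5.11 and 4.17 log2 FPKM labeled against 3.90, 3.93 and 4.05 in the controls, and PDGFR gave 3.71, 4.09 and 3.48 against 4.02, 4.45 and 3.86. The differences were 0.49 ± 0.34 in CD28 and -0.35 ± 0.34 in PDGFR, beside 0.11 ± 0.30 in Lyn11 and 0.17 ± 0.34 in Lck. Without CD28 labeled replicate 2, at 5.11, the CD28 difference was 0.15. Without PDGFR control replicate 2, at 4.45, the PDGFR difference was -0.18. The Lyn11 difference was -0.23 without labeled replicate 1 and 0.38 without labeled replicate 4, and the Lck one ran from 0.03 to 0.38 as 1 library was left out. HSPE1 values are also uncertain because its 9 measured pseudogenes had 12.9% to 94.4% as many reads as HSPE1 itself, and because HSPD1, its partner HSP60 on the opposite strand, shares 14.2% of its exon bases and averaged 7.26 log2 FPKM.

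**Figure D2:**
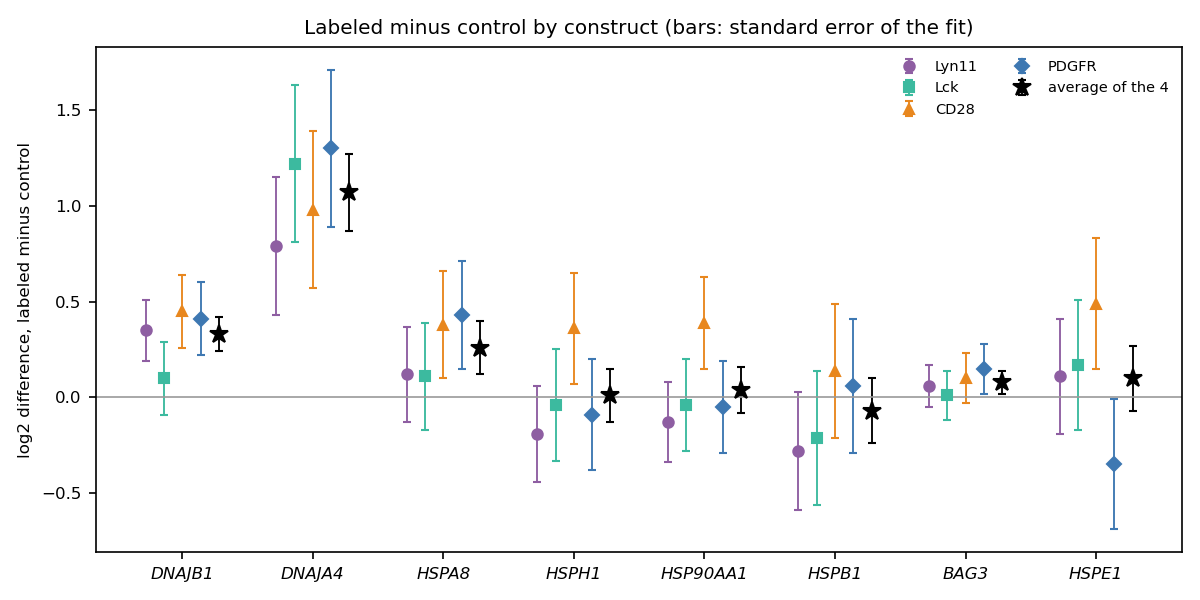
Labeled minus control log2 difference (y axis) of each member in the 4 constructs and on average, with standard errors of the fit. DNAJA4 lies between 0.79 and 1.30 in every construct and DNAJB1 between 0.10 and 0.45, while HSPH1, HSP90AA1 and HSPB1 average between -0.07 and 0.04.

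Counts of calls, at an adjusted p under 0.05 by limma with Benjamini-Hochberg adjustment over all genes tested, were few. In the average over the 4 constructs 2 of 8 members were called, DNAJA4 and DNAJB1, both higher when labeled, against 7.37% of all genes. Leaving out Lck labeled replicate 1, PDGFR labeled replicate 2 or both libraries that stood apart ended the call of DNAJB1. No conclusion is drawn from this count, since the members were chosen with these labeled and control values in view. No member was called in a single construct, where 0.579% of all genes were called in Lyn11, 0.794% in Lck, 0.476% in CD28 and 2.13% in PDGFR. At an unadjusted p under 0.05, DNAJA4 and DNAJB1 passed in Lyn11, CD28 and PDGFR, and DNAJA4 alone in Lck. That threshold was passed by 5.65% of all genes in Lyn11, 6.4% in Lck, 13.5% in CD28 and 14.1% in PDGFR. limma voom on recovered reads called 1 member in Lck, DNAJA4, and 0 in Lyn11, CD28 and PDGFR. Leaving out Lyn11 control replicate 1 added a call of DNAJB1 in Lyn11, and leaving out PDGFR control replicate 1 added one of DNAJA4 in PDGFR.

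The labeled minus control difference of the inside constructs was also set against that of the outside constructs, the question the placement of the fusions poses. The inside minus outside values were -0.13 ± 0.40 for DNAJA4 and -0.20 ± 0.18 for DNAJB1, and ran from -0.34 ± 0.34 for HSPB1 to 0.08 ± 0.33 for HSPE1. Without PDGFR control replicate 2 the values were 0.10 for DNAJA4 and -0.06 for HSPB1, so the sign for DNAJA4 rests on that library. HSPE1 ran from -0.09 to 0.24 as 1 library was left out. By limma 0 of 8 members were called, against 0.00449% of all genes. At an unadjusted p under 0.05 there were 0 members, against 6.52% of all genes. voom called 0 members. The 95% interval of the difference was -0.96 to 0.70 for DNAJA4 and -0.57 to 0.17 for DNAJB1.

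The control libraries hold no labeled sample, but their values are the control side of every labeled minus control difference. The members were chosen with results of these libraries known, so the values and p-values below are a description. BAG3 and HSPE1 were lower in the inside than in the outside controls, and no member was called higher. BAG3 had 3.84, 3.36, 3.27 and 3.48 log2 FPKM in Lyn11 controls and 3.42, 3.32 and 3.27 in Lck controls, against 3.92, 3.66 and 3.88 in CD28 and 3.64, 3.64 and 3.61 in PDGFR controls. Lyn11 control replicate 1, the deepest library, was the sole inside control in the range of the outside ones. The difference was -0.31 ± 0.09 (limma, adjusted p = 0.0293, range over 24 alternatives 0.00425 to 0.107). HSPE1 had 3.43, 3.17, 3.31 and 3.43 in Lyn11 and 3.67, 2.98 and 3.15 in Lck controls, against 3.90, 3.93 and 4.05 in CD28 and 4.02, 4.45 and 3.86 in PDGFR controls. Every inside control was below every outside one, with a difference of -0.74 ± 0.23 (limma, adjusted p = 0.0467, range 0.00751 to 0.107). The share of all genes that separate in this way was not counted, so no weight is put on the separation.

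These 2 of 8 calls stand against 11.2% of all genes in the same comparison, and side, stable cells and depth cannot be told apart in it. BAG3 was called under 14 of the 24 alternatives and HSPE1 under 9. Centring every library on its median moved the median of all genes from 0.048 to 0.133, gave -0.23 for BAG3 and -0.65 for HSPE1 and ended both calls. Without the libraries that stood apart BAG3 was called at -0.31 and HSPE1 was not at -0.65. HSPD1 was not called, at -0.21 ± 0.11. The other members lay between -0.28 ± 0.13 for DNAJB1 and 0.40 ± 0.28 for DNAJA4. Without PDGFR control replicate 2 the value of DNAJA4 was 0.17 and that of HSPB1 went from 0.40 to 0.12. DNAJB1 was called without Lyn11 control replicate 1, at -0.39.

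**Figure D3:**
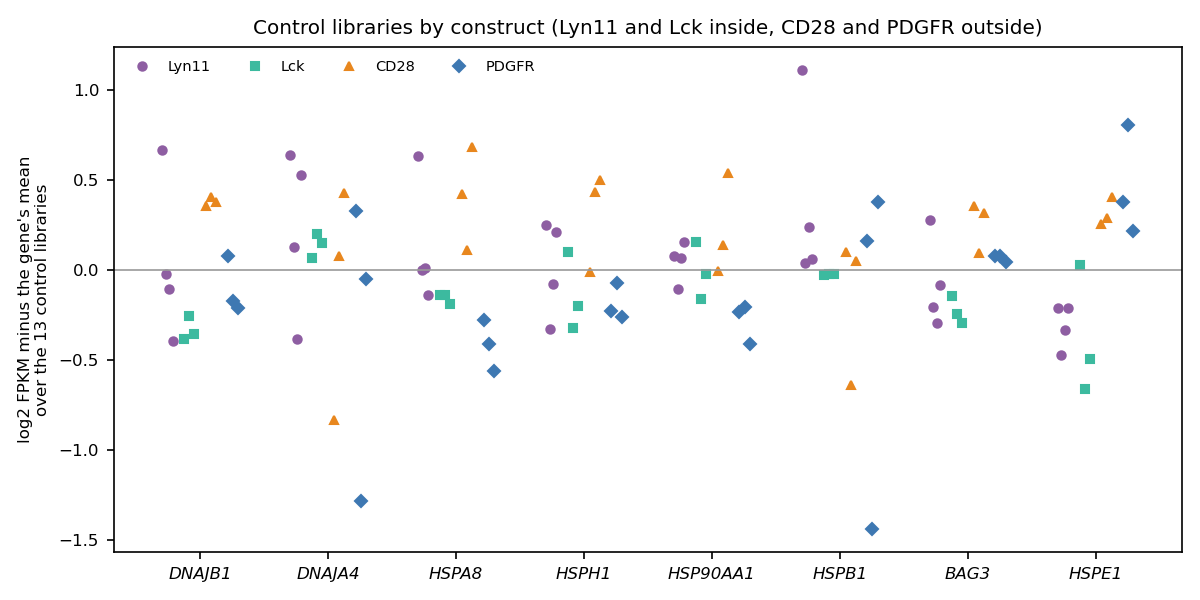
Control libraries only: log2 FPKM of each member minus its mean over the 13 controls (y axis), by construct. HSPE1 is lower in all 7 inside controls than in all 6 outside controls. CD28 controls lie above PDGFR controls for 5 of the 8 members, as for 8.16% of all genes.

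Among the outside controls, 5 of the 8 members were higher in every CD28 than in every PDGFR library, namely DNAJB1, HSPH1, HSPA8, HSP90AA1 and BAG3. Such separation in that direction was found for 8.16% of all genes. HSPA8 had the largest difference, with 7.78, 7.47 and 8.04 log2 FPKM in CD28 against 7.08, 6.95 and 6.80 in PDGFR controls, or 0.82 ± 0.28. HSP90AA1 differed by 0.50 ± 0.24, HSPH1 and DNAJB1 by 0.49 (± 0.29 and ± 0.19) and BAG3 by 0.19 ± 0.13. None was called by limma, with adjusted p = 0.216 for HSPA8 the lowest of the 8, against 0.269% of all genes. HSPA8, HSP90AA1 and DNAJB1 had an unadjusted p under 0.05, as did 13.4% of all genes, and voom called 0. The median CD28 minus PDGFR control difference was 0.36 for the 8 members and 0.07 over all genes. In the chaperone lists described below it was 0.42 for CCT and prefoldin and 0.23 for other HSF1-inducible genes. The other chaperone lists ran from -0.06 to 0.18. Higher CD28 values were therefore not particular to the members. Between Lyn11 and Lck controls 0 of 8 members and 0.0% of all genes were called, with 1 member, DNAJB1, and 1475 genes at an unadjusted p under 0.05. voom called 0 members there.

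For 6 of the 8 members, DNAJB1, HSPH1, HSPA8, HSP90AA1, BAG3 and HSPE1, the highest of the 8 group means was in CD28 labeled, as for 18.4% of all genes. DNAJA4 was highest in Lck labeled, at 0.12 log2 FPKM, and HSPB1 in Lyn11 control, at 4.04. The lowest group means were in PDGFR for DNAJA4, HSPH1, HSPA8, HSP90AA1 and HSPB1, and in Lck control for DNAJB1, BAG3 and HSPE1. This order was described and not tested.

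Correlations over the 26 libraries, which share depth and construct and are given as a description, were lowest for DNAJA4 and HSPB1. HSPH1 and HSP90AA1 had Pearson r = 0.95 and Spearman rho = 0.92, with r = 0.92 after leaving out the 2 libraries farthest from the median of HSPH1. Of the deviations from the group means r was 0.94. HSPA8 had r = 0.81 with HSP90AA1, 0.80 with HSPH1 and 0.77 with DNAJB1, and DNAJB1 had r = 0.76 with BAG3. Many other genes were as close. Ranked by r with HSPA8 among 15090 genes, HSP90AA1 was at place 181, HSPH1 at 225 and DNAJB1 at 336. BAG3 was at place 567 for DNAJB1. DNAJA4 had r = 0.21 with DNAJB1 and between -0.18 and 0.20 with the other members, although both HSP40 genes were higher when labeled. HSPB1 was between -0.22 and 0.33 with every other member, while BAG3 and HSP90AA1 had 0.40, so the gap was small. In the deviations from the group means HSPB1 ran from -0.09 with HSPE1 to 0.50 with BAG3. There DNAJB1 and HSP90AA1 had 0.26, so HSPB1 did not stand apart.

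HSP90AA1 was among the 5 genes most like HSPH1 in pattern, out of 15090 compared. DDX1, an RNA helicase, was the only gene among the 5 closest of more than 1 member, HSPH1 and HSP90AA1. The 5 closest to DNAJA4 were looked at after its values were seen. They were SNAPC5 at r = 0.85, entries named RF00003 at 0.84, and the growth factor gene HBEGF and AC106900.1 at 0.83.

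**Figure D4:**
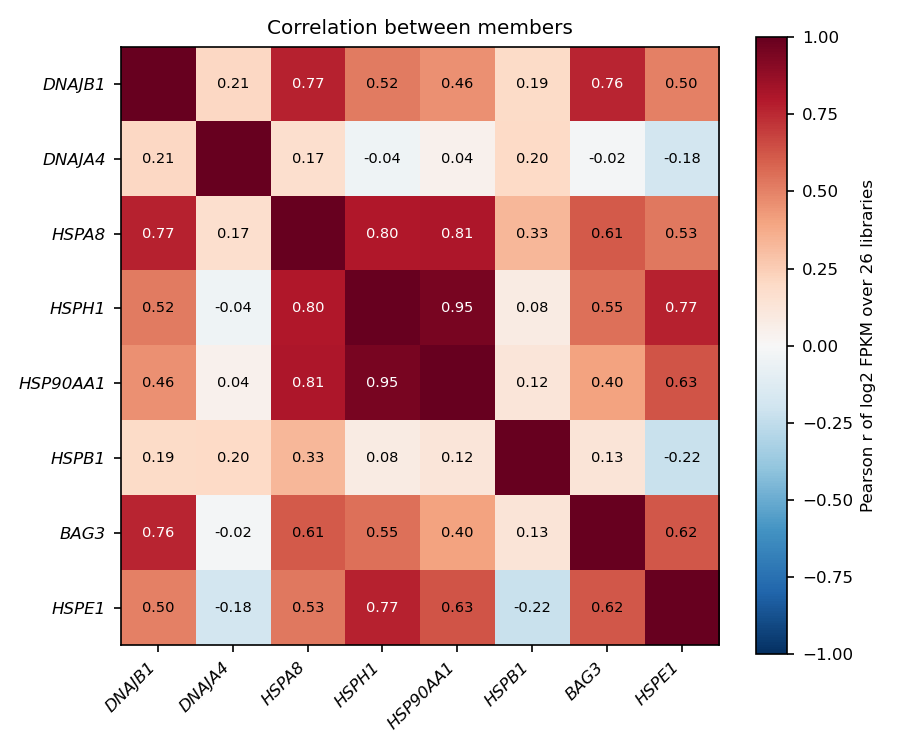
Pearson r of log2 FPKM over 26 libraries for each pair of members (colour, blue negative and red positive). HSPH1 and HSP90AA1 reach 0.95, and the DNAJA4 and HSPB1 rows stay between -0.22 and 0.33.

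Related chaperone genes were taken from lists that were also drawn up with results of these data known. Their counts are for the average of the 4 constructs, beside 2 of 8 members with a median difference of 0.09 and a median of -0.01 over all genes. In that average 7.37% of all 22284 genes tested were called, 955 higher and 687 lower. No list was tested against that share. Of 23 other HSF1-inducible genes tested, 1 was called higher and 0 lower, with a median of 0.09. The called gene was IER5, a stress-induced cofactor of HSF1, at 0.35 ± 0.08 (limma, adjusted p = 0.0107). None of the 5 heat shock factors and partners was called by limma. HSF2, at -0.27 ± 0.11, was the 1 gene among them with an unadjusted p under 0.05, which 19.2% of all genes had. In the constitutive HSP70 and HSP90 system 1 of 26 was called higher, the HSP40 and histone chaperone gene DNAJC9, at 0.28 ± 0.06, and the median was 0.0. None of the 13 CCT and prefoldin genes was called by limma, with a median of 0.09. Of these, 1, CCT5, had an unadjusted p under 0.05, against the same 19.2% of all genes.

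Of the 13 endoplasmic reticulum chaperones 4 were called higher and 0 lower, and the median was 0.18. The list was not tested against the others. They included the reticulum HSP40 gene DNAJB9 at 0.66 ± 0.15, the reticulum HSP70 gene HSPA5 at 0.28 ± 0.05 and the lectin chaperone gene CALR at 0.28 ± 0.07. Of 9 mitochondrial chaperones 0 were called higher and 1 lower, the iron-sulfur cluster co-chaperone gene HSCB, at -0.47 ± 0.13, with a median of -0.02. HSPD1 and MOB4, which lie beside HSPE1, had average differences of 0.09 ± 0.08 and -0.01 ± 0.23.

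**Figure D5:**
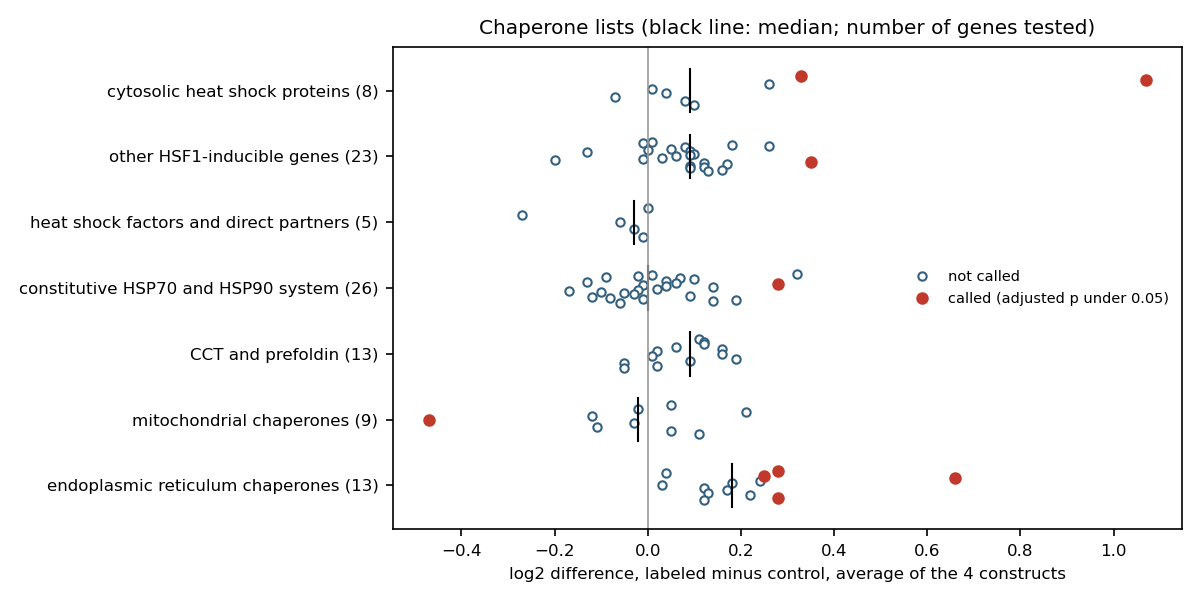
Average labeled minus control log2 difference (x axis) of each tested gene in 7 chaperone lists, with the median as a black line and called genes in red. The 2 called members are DNAJB1 at 0.33 and DNAJA4 at 1.07, and all 13 endoplasmic reticulum genes are above 0.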

How the data were processed

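The authors deposited log2 FPKM for 25745 Ensembl genes in 26 libraries. HISAT2 2.1.0, edgeR (no version) and the build hg38 appear in the submitters' processing notes. Identifiers were looked up in GENCODE 29, 24075 with their version, 1579 without it and 91 not. Reads were recovered by undoing a prior count of about 1.0 read with GENCODE exon lengths. Among values under 100 reads, 97.8% to 98.5% per library came out whole within 0.05 read. Genes above 0 on the log2 scale in 3 or more libraries, 22284 in all, were fitted with limma 3.58.1 in R 4.3.3, with a mean for each of 8 groups and an intensity trend (18 residual degrees of freedom, 20.87 after moderation). All tests were two-sided, and p-values were adjusted by the Benjamini-Hochberg method over all genes, separately for each of 9 comparisons. The fit was tested on simulated data.

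The design text calls the replicates biological. No label says that they came from separate cultures, so p-values may measure technical spread only. Replicate numbers were not used to pair samples across groups in the main fit. The members, the gene lists and the promoter motifs were chosen with earlier results of these data known. The genes named are the members, the 3 largest and 3 smallest called differences per list in the average, and genes inside or beside members. For likeness they are genes among the 5 closest of at least 2 members. HSF2, CCT5 and the 5 genes closest to DNAJA4 were named after their values were seen. Alternatives were other filters, scalings, fits and libraries left out. Leaving out both libraries that stood apart was chosen after seeing the data. Poisson intervals of read numbers cover counting error only, and intervals of log2 differences come from the spread between libraries in the fit. One marker gene of another cell type is not reported here.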

Additional observations from a re-analysis of the deposited data

Results flagged for a closer look

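The labeled minus control difference of HSPE1 was 0.84 log2 units larger in CD28 than in PDGFR. It drew attention because the 3 labeled CD28 libraries lay 0.11 to 1.15 above the mean of their controls, while the 3 labeled PDGFR libraries lay on the other side of theirs, between -0.63 and -0.03. The difference between the constructs was not tested. Without the 2 libraries that stood apart, the HSPE1 values were 0.15 in CD28 and -0.18 in PDGFR. In the 16 combinations of a member and a Lyn11 group of 4 libraries, 0 held a library far from the other 3 by Dixon's criterion.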

How the results depend on the processing

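Every labeled minus control call concerned DNAJA4 or DNAJB1. The members were chosen with these values known, and DNAJA4 passed the filter through 5 labeled libraries and 0 controls. The counts of calls below are therefore a description and no support for a difference. DNAJA4 was called in the average under all 36 alternatives that tested it, between 0.39 on the log2(FPKM + 1) scale and 1.16. The stricter filter, which asked for more than 1 log2 unit in 6 or more libraries, did not test it, which left 1 member called. DNAJB1 was called under 34 of 37 alternatives, between 0.28 and 0.38. The exceptions were leaving out Lck labeled replicate 1 or PDGFR labeled replicate 2, and leaving out both libraries that stood apart, each of which left 1 member called, DNAJA4. Leaving out 1 library gave 1 to 2 members called in the average, 0 to 1 in Lyn11 and PDGFR, and 0 in Lck, CD28 and inside minus outside. Weights per construct, a fit of only the libraries compared and voom each called 1 member in Lck, DNAJA4.

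For inside against outside controls, no filter on low values, a fit with no intensity trend, weights per construct and leaving out both libraries that stood apart each called 1 member, BAG3. A fit of only the libraries compared and voom each called 1, HSPE1. Median centring called 0, quantile normalization 3, and leaving out 1 library 0 to 3. Without Lyn11 control replicate 1, 3 were called, and without replicate 2 or 3 of the Lyn11 controls, 2 or 3 of the Lck controls, 1 or 3 of the CD28 controls, or 2 of the PDGFR controls, 0. Without Lyn11 control replicate 4, CD28 control replicate 2 or PDGFR control replicate 1, 1 was called, BAG3. No called difference changed sign under the alternatives run.

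Counts over all genes moved more. They ran from 60 to 256 in Lyn11 against 129, 64 to 1831 in Lck against 177, 0 to 464 in CD28 against 106, 15 to 727 in PDGFR against 475, 0 to 8 for inside minus outside against 1, and 1 to 303 for CD28 against PDGFR controls against 60. The average kept between 1049 and 2061 calls against 1642 and the inside against outside controls between 1492 and 3580 against 2490. Replicate numbers do not pair the samples, since same-numbered labeled and control libraries had deviations correlated at -0.288 to 0.166. With the replicate block 0 members were called in each construct, 2 in the average and 0 for inside minus outside, while the counts over all genes were 60 in Lyn11, 64 in Lck, 29 in CD28, 290 in PDGFR and 1291 in the average. Depth limits DNAJA4 most, at 15 to 178 reads per library.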
